A study of Penicillium oxalicum with 6 samples.

Results

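Heme-binding proteins and cytochrome P450s of the filamentous fungus Penicillium oxalicum were described by digital gene expression tag profiling, in which short sequence tags next to CATG sites of the mRNA are counted. The members were the genes annotated with the Gene Ontology function heme binding, or with a best protein match naming a cytochrome P450, other than those in the KEGG pathways of oxidative phosphorylation and steroid biosynthesis, which left out 8 genes. This gave 71 of the 8902 genes with a PDE identifier. They comprised 34 P450s, 1 NADPH-cytochrome P450 reductase, 3 catalases, 2 peroxidases and 31 other heme proteins. Of the P450s, 17 are named so in their best protein match and 17 were placed there by heme binding together with monooxygenase activity or an oxidoreductase activity on paired donors.

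The strains were Dmtr23B, a knockout of mtr23B, Rmtr23B, in which mtr23B was complemented, and M12, which derives from a wild-type strain, carries a mutant pyrG, cannot make its own uracil, and is taken here as the parent. Whether Dmtr23B and Rmtr23B carry the pyrG mutation as well is not stated in the labels. All 3 were started from conidia in Vogel's medium, with 2% glucose, and grown at 30 °C for 20 h, after which washed mycelia spent 24 h in new medium of the same glucose content. There was 1 library for each strain, so no difference below has a replicate check. The number of clones and the way of complementation are not given in the labels, and since the files do not pair mtr23B with an identifier, its own level was not checked.

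Cytochrome P450s are heme-thiolate enzymes that insert an oxygen atom into organic molecules, with electrons passed from NADPH by a P450 reductase or cytochrome b5. In filamentous fungi many of them tailor secondary metabolites or open the breakdown of aromatic compounds and alkanes. Catalases and heme peroxidases remove hydrogen peroxide, and other heme proteins carry electrons, bind oxygen or reduce nitrate and sulfite.

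Levels are deposited TPM, tag counts scaled by each library's total and not by length, so they are compared between strains for one gene. Tags assigned to genes numbered 2013784 in Dmtr23B, 2147854 in Rmtr23B and 2048846 in M12, which is 60.1%, 63.9% and 61.0% of the library totals. A gene counted as measured with at least 10 TPM in any of the 3 libraries, about 34 tags, and as higher or lower in a strain when its TPM + 1 was at least 2-fold above both, or below both, of the other strains. Fold values between 2 libraries carry exact binomial 95% intervals from tag counts. They cover counting error at most, and not the variation between cultures or libraries. No molecular identifiers are mentioned, so copies of a tag cannot be told from separate tags. The words rose and fell are kept for genes past edgeR's quasi-likelihood test of Dmtr23B against the other 2 libraries (Benjamini-Hochberg adjusted over 5756 genes). Its spread is estimated from Rmtr23B and M12 alone and is shared in part across genes. The median measured gene was 0.38 higher (log2) in Dmtr23B than the mean of the other strains, and 0.04 higher once the libraries were scaled to their median ratio.

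Of the 71 members 56 were measured, 23 of them P450s. In Dmtr23B 12 measured members were lower and 7 higher than in both other strains. Over all 5756 measured genes 7.82% were lower and 10.8% higher, 18.6% in all. P450s accounted for 7 of the lower and 5 of the higher members, so 52.2% of the measured P450s stood apart in Dmtr23B. Among the 33 other measured members, 5 were lower and 2 higher, 21.2% in all, close to the share over all genes. Those 2 carry heme binding and aromatase activity, a term given to some P450s. By name, PDE_09984 is matched to a phenylacetate hydroxylase, a kind of P450, so the other members hold a likely P450. Classed by the aromatase term both would count as higher P450s. With all genes of that term counted as P450s, 53.8% of 26 measured P450s would be apart. With median-ratio scaling the P450s still divided into 7 lower and 5 higher, whereas the other members divided into 5 lower and none higher. All genes then gave 10.7% lower and 5.76% higher, so the background too had more lower than higher genes under that scaling. The edgeR test called 6 members that fell and 1 that rose, beside 3.39% and 1.32% of all genes tested, and 5 of the 6 that fell were P450s. The library scaling within this test lowered Dmtr23B relative to TPM, and on this scale more of all genes fell than rose. For PDE_05566, the log2 difference was 0.54 on TPM and 0.15 in edgeR. Against M12 alone, 7 of 23 P450s were higher and 7 lower, where all genes gave 14.6% and 10.2%. Against Rmtr23B alone, 6 of 22 were higher and 6 lower, where all genes gave 25.9% and 11.1%. The share of higher P450s against Rmtr23B was thus near that of all genes. Fewer hyphae of a type and less mRNA per hypha cannot be told apart in these bulk samples.

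**Figure D1:**
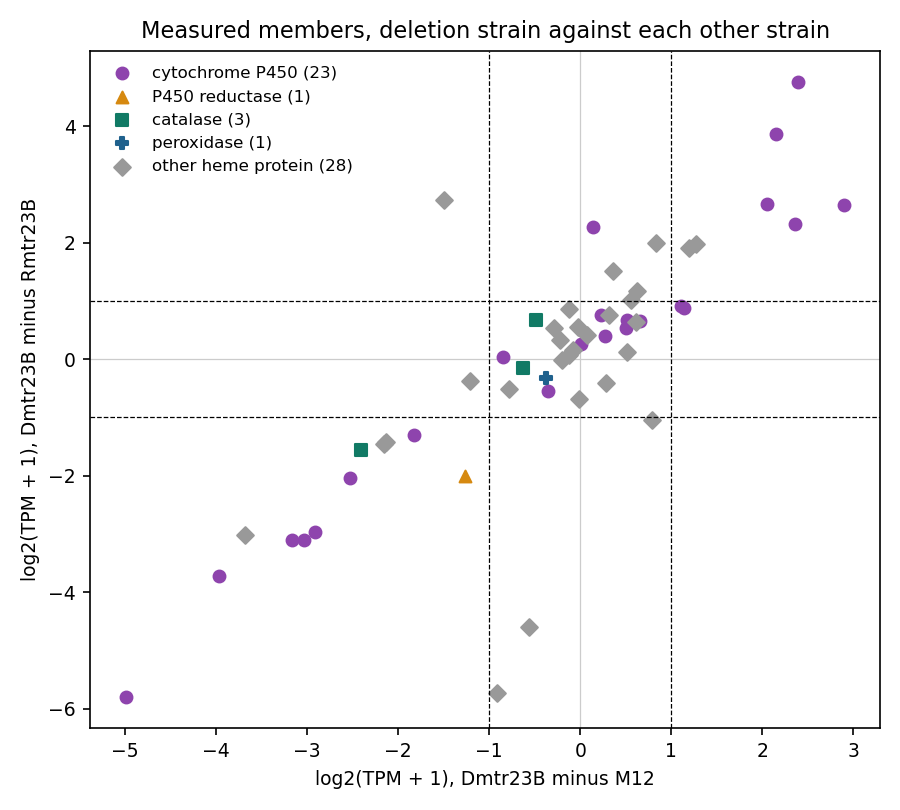
Difference of log2(TPM + 1) between Dmtr23B and M12 (horizontal axis) and between Dmtr23B and Rmtr23B (vertical axis) for the 56 measured members, 1 point per gene, coloured by class, with dashed lines at 2-fold. The 12 lower members lie in the lower left corner and the 7 higher ones in the upper right, and both axes share the Dmtr23B library.

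The P450s thus split into opposite directions, and their median difference of 0.49 (log2), near the 0.38 of all measured genes, describes neither side. Summed over the 7 lower P450s, the level was 176 TPM in Dmtr23B, 1182 TPM in Rmtr23B and 1232 TPM in M12. For the 5 higher P450s it was 1389.9 TPM in Dmtr23B, 194 TPM in Rmtr23B and 279.5 TPM in M12. All 34 P450s together held 2202 TPM in Dmtr23B, 1835 TPM in Rmtr23B and 2185 TPM in M12, so the strains lay closer in the sum than in either group. The lower genes were all among the 12 measured P450s named so in their best match, of which 1 was higher. Among the 11 measured P450s placed by Gene Ontology terms alone, 4 were higher and none lower.

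Among the lower P450s, PDE_10010 had no tag in Dmtr23B, 184 tags in Rmtr23B and 103 in M12 (0, 54.8 and 30.7 TPM). Its best match is a benzoate 4-monooxygenase, the P450 that hydroxylates benzoate in aspergilli. With its Dmtr23B level set to a floor of 3 tags, PDE_10010 was 61.2-fold lower than in Rmtr23B and 34.2-fold lower than in M12. The exact 95% lower limits from the tag counts themselves were 49.3 and 27.4. PDE_10010 fell in the edgeR test. PDE_10008, a putative P450 only 2 locus numbers away, stood at 2.09 TPM in Dmtr23B, 39.6 TPM in Rmtr23B and 47.3 TPM in M12, and it fell as well (edgeR adjusted p = 0.0179). M12 exceeded Dmtr23B 22.7-fold (10.7 to 57.3) in this gene.

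The lower P450s with the most tags were PDE_05886 and PDE_08660. PDE_05886, a putative P450, had 61.8 TPM in Dmtr23B, 539.9 TPM in Rmtr23B and 511 TPM in M12, and fell with an edgeR adjusted p of 0.0429, which was 0.0530 with RLE in place of TMM scaling, the 1 call among the 7 that this ended. PDE_08660, another match to benzoate 4-monooxygenase, had 39.4 TPM in Dmtr23B, 346 TPM in Rmtr23B and 362 TPM in M12 (edgeR adjusted p = 0.0358). In both genes the Rmtr23B and M12 libraries lay close to each other and far above Dmtr23B, which was 8.74-fold below Rmtr23B (7.57 to 10.1) in PDE_05886 and 8.78-fold below it (7.33 to 10.6) in PDE_08660. PDE_00808, a P450 monooxygenase match, fell to 1.79 TPM in Dmtr23B, against 20.8 TPM in Rmtr23B and 19.9 TPM in M12 (edgeR adjusted p = 0.0224).

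The 2 remaining lower P450s did not pass the edgeR test and are named because they complete the count. PDE_01070, whose match is called a P450 oxidoreductase, stood at 1.19 TPM in Dmtr23B, 8.04 TPM in Rmtr23B and 11.6 TPM in M12 (edgeR adjusted p = 0.117). PDE_07206, a putative P450, stood at 69.8 TPM in Dmtr23B, 173 TPM in Rmtr23B and 249 TPM in M12 (edgeR adjusted p = 0.133). Its neighbour by locus number, the putative P450 PDE_07207, had 23.3 TPM in Dmtr23B, 34.5 TPM in Rmtr23B and 30.1 TPM in M12 and was within 2-fold of both.

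Higher P450s were led by PDE_01216, with 99.4 TPM in Dmtr23B, 2.68 TPM in Rmtr23B and 18.2 TPM in M12. Dmtr23B exceeded M12 5.47-fold (4.15 to 7.31) and Rmtr23B 37.1-fold (19.3 to 81.8), so the size of the difference depended on the strain it was set against. PDE_02656, matched to an n-alkane-inducible P450, a kind that starts alkane oxidation in yeasts, had 458 TPM in Dmtr23B, 30.4 TPM in Rmtr23B and 103 TPM in M12. Neither passed the edgeR test, for a reason that was not tested. In both genes Rmtr23B lay more than 2-fold below M12.

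PDE_08994 was the highest P450 in Dmtr23B, at 773 TPM, against 154 TPM in Rmtr23B and 149.7 TPM in M12. It is annotated to fatty acid metabolism, and Dmtr23B exceeded M12 5.17-fold (4.69 to 5.69) without passing the edgeR test (adjusted p = 0.113). PDE_01198 was the only member that rose, to 35.2 TPM in Dmtr23B, against 4.76 TPM in Rmtr23B and 3.87 TPM in M12 (edgeR adjusted p = 0.0347). PDE_02824 stood at 24.2 TPM in Dmtr23B, 2.98 TPM in Rmtr23B and 5.06 TPM in M12 (edgeR adjusted p = 0.0996). None of these 3 genes has a product name in its best match, and their place among the P450s rests on annotation terms.

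The other 11 measured P450s were not apart in Dmtr23B. The one with the most tags, PDE_02121, had 157 TPM in Dmtr23B, 152 TPM in Rmtr23B and 282 TPM in M12. PDE_04228, matched to phenylacetate 2-hydroxylase, the P450 of phenylacetate breakdown in aspergilli, had 31.9 TPM in Dmtr23B, 16.4 TPM in Rmtr23B and 14.3 TPM in M12, just within 2-fold of Rmtr23B. PDE_02388 and PDE_09306 also carry terms for RNA binding and a protein kinase, so their place among the P450s rests on part of the annotation. The 11 P450s below 10 TPM reached at most 8.63 TPM and were not compared.

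**Figure D2:**
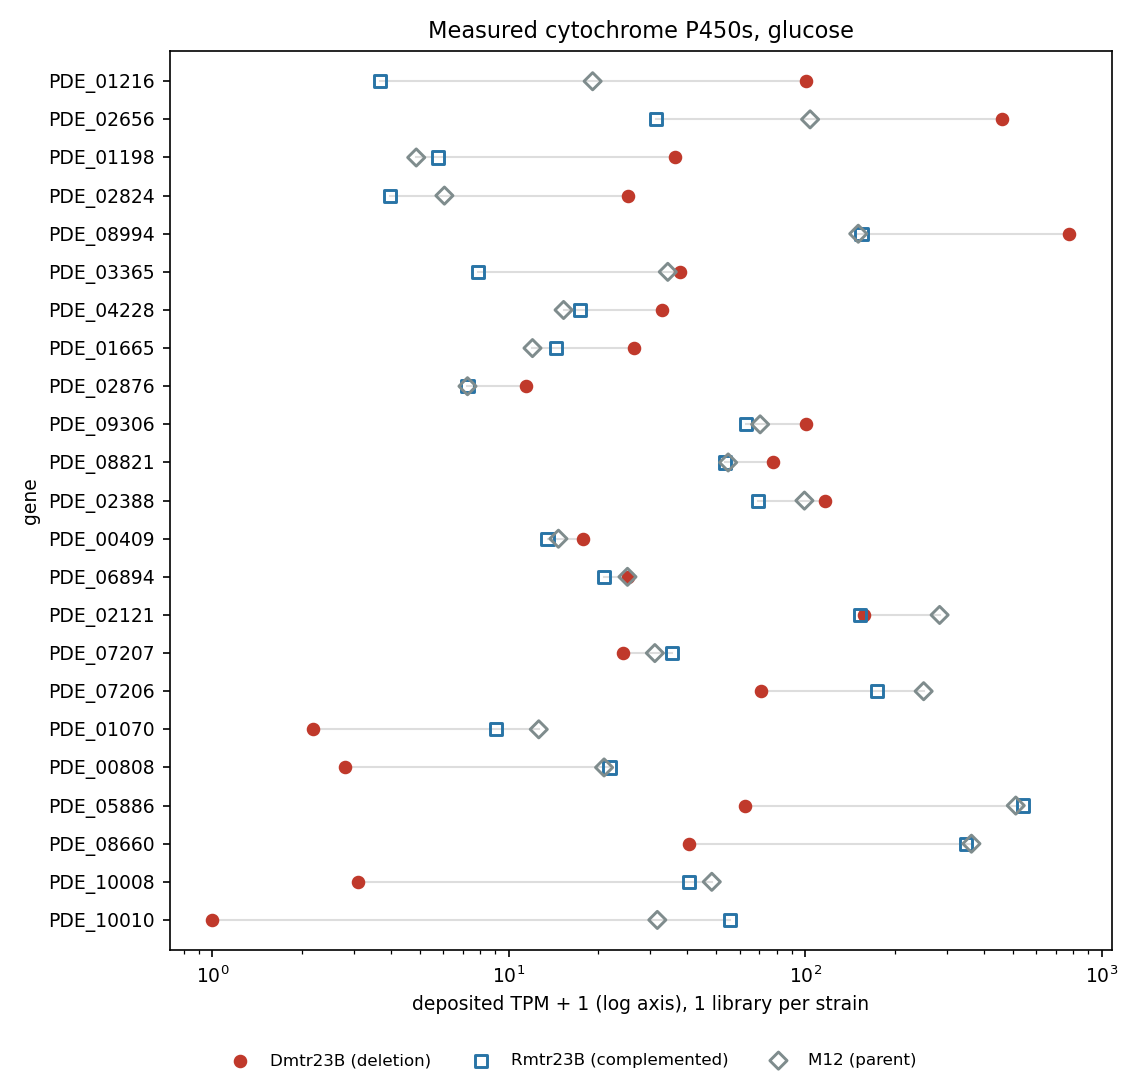
Deposited TPM + 1 on a log axis for the 23 measured P450s, 1 row per gene, with Dmtr23B as filled circles, Rmtr23B as open squares and M12 as open diamonds, ordered from the highest to the lowest difference of Dmtr23B from the mean of the others. The top 5 rows have Dmtr23B at the right end and the bottom 7 rows have it at the left end, each at least 2-fold from both other strains.

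The electron donors of P450s were also measured. The NADPH-cytochrome P450 reductase PDE_07999, a flavoprotein that the name match brought into the set, stood at 42.1 TPM in Dmtr23B, 171 TPM in Rmtr23B and 102 TPM in M12. It was 4.07-fold lower in Dmtr23B than in Rmtr23B (3.38 to 4.93) and 2.43-fold lower than in M12 (1.99 to 2.98), without passing the edgeR test (adjusted p = 0.132). Cytochrome b5 (PDE_08962) had 172 TPM in Dmtr23B, 278 TPM in Rmtr23B and 174 TPM in M12, so Dmtr23B and M12 lay together and Rmtr23B stood above them, within 2-fold. Dap1 (PDE_04724), a heme protein that supports P450s in yeast, had 80.9 TPM in Dmtr23B, 35.1 TPM in Rmtr23B and 52.1 TPM in M12 and was not apart by the 2-fold rule.

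Among enzymes of hydrogen peroxide removal, 1 of the 4 measured, a catalase named spore-specific, was lower in Dmtr23B. This CatA match (PDE_05708) stood at 2.39 TPM in Dmtr23B, 8.93 TPM in Rmtr23B and 17.0 TPM in M12, which is 8, 30 and 57 tags. It was 3.74-fold below Rmtr23B (1.68 to 9.44) and 7.11-fold below M12 (3.37 to 17.3), without passing the edgeR test (adjusted p = 0.113). Most measured markers of conidia, the asexual spores, were lower beside it, where all genes gave 7.82% lower. Of 7 genes named for BrlA, WetA or conidial products, 6 were measured and 5 of these were lower, and the 5 fell in the edgeR test (adjusted p = 0.0179 to 0.0447). BrlA was among these 5, and the others were all named for conidial pigment biosynthesis, with PDE_09452 and PDE_09453 at adjacent loci, so they are not independent markers. The conidial hydrophobin was not lower, and WetA, with 8 tags in Dmtr23B, 5 in Rmtr23B and 3 in M12, was too low to compare. None of the 7 was at 0 tags in any library. Their summed level was 1465 TPM in Dmtr23B, 1980.2 TPM in Rmtr23B and 2781 TPM in M12. The hydrophobin alone held 1388 TPM in Dmtr23B, 812 TPM in Rmtr23B and 1587 TPM in M12. This marker list was drawn up after the data were seen, and its part in the CatA difference was not tested.

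None of the other peroxide-removing enzymes was apart in Dmtr23B. The catalase with the most tags of all members, PDE_07249, had 834 TPM in Dmtr23B, 924 TPM in Rmtr23B and 1292 TPM in M12. Catalase B (PDE_01404), the mycelial enzyme in aspergilli, had 8.65 TPM in Dmtr23B, 5.06 TPM in Rmtr23B and 12.5 TPM in M12, with only Rmtr23B and M12 more than 2-fold apart. Cytochrome c peroxidase Ccp1 (PDE_05494), which reduces peroxide in mitochondria, had 249 TPM in Dmtr23B, 310.4 TPM in Rmtr23B and 324 TPM in M12. For these 3 genes edgeR gave adjusted p from 0.592 to 0.854. The second peroxidase stayed below 10 TPM.

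Oxygenases other than P450s gave the sixth gene that fell. The match to Psi-producing oxygenase C (PDE_04936), of a family that makes oxylipin signals linked to sporulation in aspergilli, had 3.28 TPM in Dmtr23B, 33.6 TPM in Rmtr23B and 53.9 TPM in M12 (edgeR adjusted p = 0.0186). Dmtr23B was 16.4-fold below M12 (8.96 to 33.5). A second enzyme of this family, the PpoA match PDE_06706, had 35.2 TPM in Dmtr23B, 8.04 TPM in Rmtr23B and 19.4 TPM in M12 and did not stand 2-fold from M12. The 2 oxygenases thus lay on opposite sides of M12 in the Dmtr23B library, with PpoA lower in Rmtr23B than in either other strain.

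Tryptophan-cleaving enzymes also differed from each other. The indoleamine dioxygenase match PDE_02071, which opens the indole ring of tryptophan, had 18.8 TPM in Dmtr23B, 53.3 TPM in Rmtr23B and 87.5 TPM in M12, lower than both without passing the edgeR test (adjusted p = 0.0623). PDE_05907, with the same dioxygenase term and tryptophan metabolism as its pathway, had 97.0 TPM in Dmtr23B, 13.7 TPM in Rmtr23B and 275 TPM in M12. It was 20.1-fold lower in Rmtr23B than in M12 (14.95 to 27.7), and Dmtr23B lay between them.

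Among the remaining heme proteins, PDE_01345 was lower in Dmtr23B, at 23.3 TPM, against 63.7 TPM in Rmtr23B and 106 TPM in M12. Its terms are oxygen binding, oxygen transport and a reductase activity, and it did not pass the edgeR test (adjusted p = 0.0695). PDE_09984, matched to the phenylacetate hydroxylase of Penicillium chrysogenum, and PDE_00224 were higher, with 102 and 181 TPM in Dmtr23B, 26.2 and 44.9 TPM in Rmtr23B, and 43.8 and 74.4 TPM in M12. Both carry heme binding and aromatase activity, a term given to some P450s, and both lost their 2-fold call under median-ratio scaling. The name matched by PDE_09984 is also that of a P450, as in PDE_04228, but the class rule placed it here. With the 3 genes of these terms counted as P450s, 7 P450s were lower and 7 higher.

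The 3 other heme proteins with the most tags were an electron carrier and lipid and respiratory enzymes. Cytochrome c (PDE_08701) had 574 TPM in Dmtr23B, 814 TPM in Rmtr23B and 989 TPM in M12. An acyl-CoA dehydrogenase (PDE_05566), an enzyme of fatty acid oxidation, had 589 TPM in Dmtr23B, 348 TPM in Rmtr23B and 472 TPM in M12. PDE_06450, annotated with fumarate reductase and succinate dehydrogenase activity, had 500.4 TPM in Dmtr23B, 341 TPM in Rmtr23B and 510.2 TPM in M12. All 3 lay within 2-fold in every pair of strains, with edgeR adjusted p from 0.494 to 0.944. Genes of like function with fewer tags went past 2-fold against 1 strain. Cytochrome b2 (PDE_02406), a lactate dehydrogenase in yeast, had 14.6 TPM in Dmtr23B, 19.4 TPM in Rmtr23B and 35.1 TPM in M12. The acyl-CoA dehydrogenase match PDE_08009 had 336 TPM in Dmtr23B, 166 TPM in Rmtr23B and 227 TPM in M12.

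**Figure D3:**
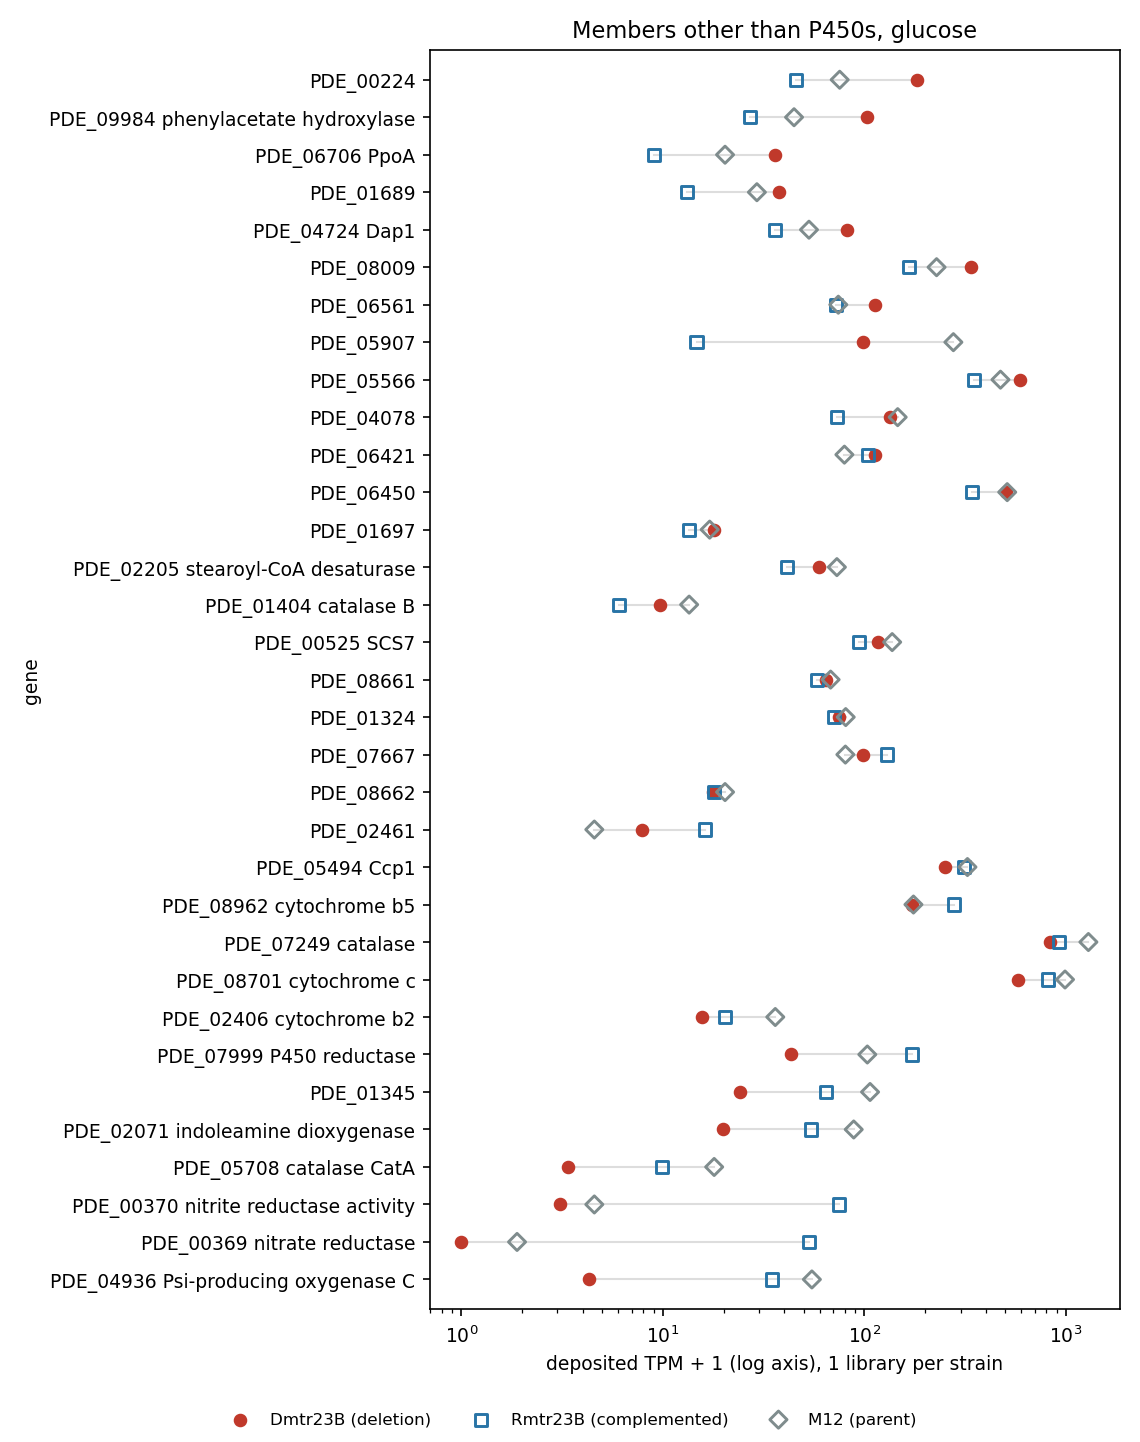
Deposited TPM + 1 on a log axis for the 33 measured members not classed as P450s, with symbols as for the P450s and rows ordered by the difference of Dmtr23B from the mean of the others. Most rows have their 3 symbols close together, and the nitrate and nitrite reductase rows have Rmtr23B alone at the right.

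Rmtr23B was set against M12 to see how far the complemented strain matched the parent. Of 53 members with at least 10 TPM in either library, 3 were at least 2-fold higher and 7 lower in Rmtr23B, where all genes gave 4.52% and 10.8%. All 7 P450s that were lower in Dmtr23B lay within 2-fold between Rmtr23B and M12, as did most of all genes. These 7 had been picked as standing above Dmtr23B in both of these libraries. Of the 5 P450s that were higher in Dmtr23B, 2 were at least 2-fold lower in Rmtr23B than in M12. These were PDE_01216, 6.78-fold lower (3.35 to 15.5), and PDE_02656, 3.38-fold lower (2.70 to 4.26). PDE_01198 and PDE_02824 were below 10 TPM in both libraries.

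The 3 members higher in Rmtr23B were annotated as nitrate or nitrite reductases. Nitrate reductase (PDE_00369), which makes nitrite from nitrate, had 0 tags in Dmtr23B, 175 tags in Rmtr23B and 3 tags in M12. PDE_00370, the next locus and annotated with nitrite reductase activity, which makes ammonium, had 7 tags in Dmtr23B, 247 in Rmtr23B and 12 in M12. PDE_02461, with a nitrate reductase term, had 23 tags in Dmtr23B, 51 in Rmtr23B and 12 in M12. Rmtr23B exceeded M12 58.3-fold in PDE_00369 (19.6 to 286), 20.6-fold in PDE_00370 (11.6 to 40.4) and 4.25-fold in PDE_02461 (2.24 to 8.76). Rmtr23B was apart from both other strains in 9 members, 3 higher and 6 lower, where all genes gave 3.06% and 7.11%. M12 was apart in 1 member, the higher PDE_05907, where all genes gave 2.35% higher and 0.573% lower. The sulfite reductase PDE_07667 stood at 97.0 TPM in Dmtr23B, 128 TPM in Rmtr23B and 79.5 TPM in M12.

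Genes around heme supply were compared from lists of product names. Of all measured genes 18.6% were apart in Dmtr23B, and the lists of heme synthesis and iron uptake are too short to be set apart from that share. None of the 8 measured genes of heme synthesis and attachment was apart or passed the edgeR test, and their median difference was 0.10 (log2). Porphobilinogen synthase (PDE_06849), an early step, had 115 TPM in Dmtr23B, 103 TPM in Rmtr23B and 152 TPM in M12. Uroporphyrinogen decarboxylase (PDE_02973), a later step, had 149 TPM in Dmtr23B, 95.8 TPM in Rmtr23B and 82.5 TPM in M12. Neither of 2 measured iron uptake genes was apart in Dmtr23B, and their median difference was -0.21 (log2). The ferric-chelate reductase PDE_06091 had 212 TPM in Dmtr23B, 137 TPM in Rmtr23B and 385 TPM in M12, and the siderophore synthesis protein PDE_02883 had 29.8 TPM in Dmtr23B, 25.9 TPM in Rmtr23B and 53.0 TPM in M12, so that both were more than 2-fold lower in Rmtr23B than in M12.

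The median difference of 16 measured antioxidant enzymes without heme was 0.20 (log2). In Dmtr23B none of them was higher and 1 was lower, where all genes gave 10.8% and 7.82%. This was the glutathione S-transferase PDE_01194, which fell to 3.28 TPM in Dmtr23B, against 31.6 TPM in Rmtr23B and 19.4 TPM in M12 (edgeR adjusted p = 0.0399). Manganese superoxide dismutase (PDE_00326) held 7234 TPM in Dmtr23B, 4590.25 TPM in Rmtr23B and 7621 TPM in M12. Glutathione peroxidase Hyr1 (PDE_04919) had 128 TPM in Dmtr23B, 814 TPM in Rmtr23B and 244 TPM in M12, so Rmtr23B stood above both. The list of heme breakdown had no match, and that of P450 redox partners had 1 further gene, a cytochrome b5 reductase with no tag in any library.

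Enzymes of secondary metabolism, the usual partners of tailoring P450s, had the largest share of lower genes among the lists drawn up around heme and P450s. The conidial markers are left aside here. Over all measured genes 7.82% were lower and 10.8% higher in Dmtr23B. Of 14 measured genes 11 were lower and none higher, 6 of them fell in the edgeR test, and the median difference was -2.91 (log2), or -2.75 with a gene at 0 tags set to the floor of 3. The name search also brought in PDE_01494, a protein-repair methyltransferase, which was not apart. The UbiA prenyltransferase PDE_10005 had 8.95 TPM in Dmtr23B, 312 TPM in Rmtr23B and 174 TPM in M12. The O-methyltransferase match PDE_02119 had the most tags, with 40.9 TPM in Dmtr23B, 469 TPM in Rmtr23B and 239.6 TPM in M12, without passing the edgeR test (adjusted p = 0.0623). The O-methyltransferase PDE_01069 had 2.39 TPM in Dmtr23B, 26.2 TPM in Rmtr23B and 29.8 TPM in M12. The prenyltransferase matches PDE_00797 and PDE_00807 fell as well, both to 3.58 TPM in Dmtr23B, against 47.0 and 58.9 TPM in Rmtr23B and 91.7 and 46.7 TPM in M12. So did the peptide synthase matches PDE_00789, listed with 0 tags in Dmtr23B, 33 in Rmtr23B and 34 in M12, and PDE_04438, with 11, 471 and 155 tags in the same strains. Many of these genes share loci with P450s of the set, as described next, and are not independent of them.

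Locus numbers were used as a stand-in for gene order. For comparison, all measured genes gave 7.82% lower and 10.8% higher in Dmtr23B. Counting each neighbour once and leaving out the lower P450s themselves, 24 of 44 measured genes within 5 locus numbers of the 7 lower P450s were lower too, 54.5%, and 2 were higher. Around the 11 P450s that were not apart, 6 of 66 were lower, 9.09%, and 6 were higher. Around the 5 higher P450s, 5 of 33 were lower and 7 higher, 21.2%. Around the other members that were lower, 5 of 31 were lower and 3 higher. Neighbourhoods of PDE_10008 and PDE_10010 overlap, so the lower P450s represent fewer loci than genes.

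Of the lower P450s 4 had at least 5 lower neighbours. PDE_00808 lies between the prenyltransferase PDE_00807 and an oxidoreductase, with 8 of 8 measured neighbours lower. PDE_01070 follows the O-methyltransferase PDE_01069, with 6 of 6 lower. PDE_10008 and PDE_10010 lie near the UbiA prenyltransferase PDE_10005, with 7 of 8 and 5 of 6 lower, each of the pair being counted here as a neighbour of the other. The runs around PDE_00808 and PDE_10008 go on past 5 locus numbers, as the plot of neighbouring genes shows.

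PDE_05886 had 4 lower neighbours of 7, directly beside it, and 2 higher ones farther off. They included PDE_05885, matched to an NADPH-ferrihemoprotein reductase, the kind of enzyme that passes electrons to P450s, and PDE_05889, matched to a tryptophan dioxygenase, both named after their values were seen. PDE_05885 fell to 9.25 TPM in Dmtr23B, against 201 TPM in Rmtr23B and 285 TPM in M12 (edgeR adjusted p = 0.0179). PDE_05889 fell to 15.2 TPM in Dmtr23B, against 96.4 TPM in Rmtr23B and 91.4 TPM in M12 (edgeR adjusted p = 0.0282). In contrast, PDE_08660 and PDE_07206 had none of 9 and none of 7 measured neighbours lower. The neighbours of PDE_08660 include PDE_08661 and PDE_08662, heme-annotated members with chitin synthase or hexosyl transferase terms, which were within 2-fold in every pair of strains.

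**Figure D4:**
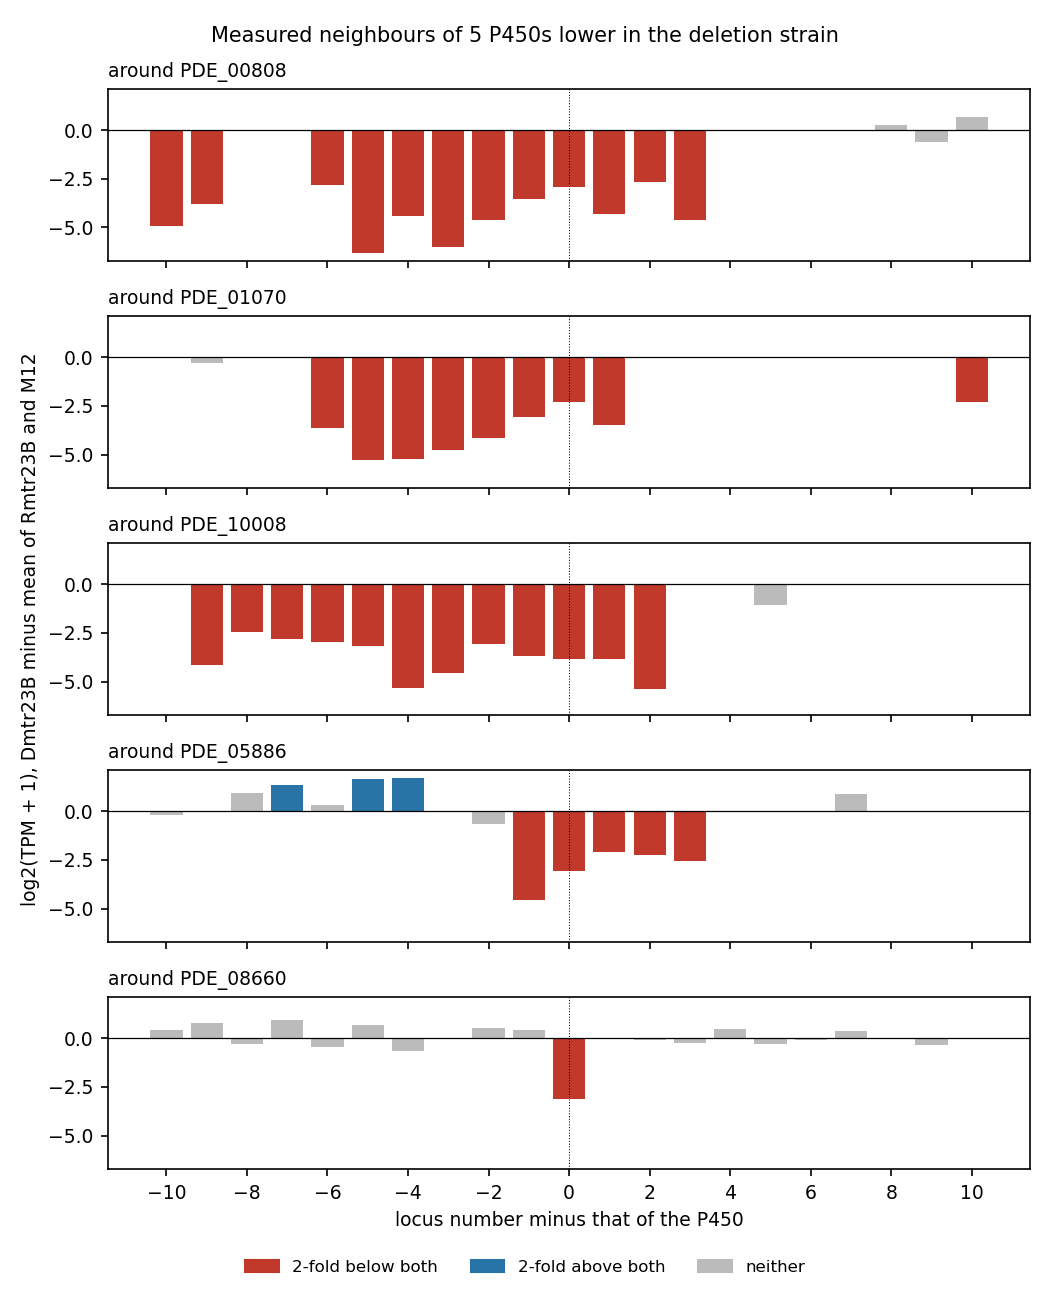
Difference of log2(TPM + 1) of Dmtr23B from the mean of Rmtr23B and M12 for measured genes within 10 locus numbers of 5 lower P450s, each panel centred on its P450 at 0, in red where 2-fold below both strains, blue where 2-fold above both and grey otherwise, and with gaps where a number holds no measured gene. In the upper 3 panels red bars run on both sides of the P450, around PDE_05886 they form a block of 5, and around PDE_08660 the P450 is the only red bar.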

How the data were processed

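The members and gene lists were chosen with earlier results of these data known. A single table was used. It gives tag counts per gene, as deposited and not normalised, and TPM values that the authors made from counts and the library total in the file headers, which recomputation matched to within 0.005 TPM. Per the labels' protocols, tags came from NlaIII-cut cDNA of bead-purified mRNA and were released by MmeI. How tags were mapped, to which build and strand, and how a tag matching more than 1 gene was counted is not given in the sources used here, so P450s, a large gene family, and overlapping genes are uncertain. No PDE identifier matched the RefSeq table, made from another strain, so no positions are given.

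Columns for the cellulose and wheat bran medium continue over 282 rows beyond those with an identifier. Across the 8902 identified rows, their counts had a Spearman correlation of -0.003 with glucose in M12, beside 0.945 between M12 and Rmtr23B in glucose, so they were not used by gene. The value of 0.945 shows only that these glucose columns share a row order. That this order follows the identifiers was assumed.

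Differences are on the log2(TPM + 1) scale, which understates those of low genes. Counts were tested with edgeR 4.0.16 (TMM, quasi-likelihood, two-sided, threshold 0.05) in R 4.3.3, Dmtr23B against Rmtr23B and M12, on genes reaching 10 TPM in at least 1 glucose library. The fit has 1 residual degree of freedom and assumes that the lone library varies like the other 2. DESeq2 1.42.0 was an alternative. With 1 library a strain, the strain cannot be told apart from its culture or its library. The p-values set the difference of Dmtr23B against a spread estimated from Rmtr23B and M12 and shared in part across genes.

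Classes were assigned by product name, then by Gene Ontology terms, and Psi-producing oxygenase was placed with the fatty acid oxygenases. Named genes were P450s apart by size (the 10 largest differences), with the most tags (5) or past edgeR, every measured catalase, peroxidase, P450 reductase and cytochrome b5, other heme proteins apart or with the most tags (3), the 5 with the largest difference in Rmtr23B, and list genes past edgeR or with the most tags (2). Other genes named were chosen after their values were seen.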

Additional observations from a re-analysis of the deposited data

How the results depend on the processing

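The counts of P450s higher and lower in Dmtr23B stayed within 1.5 times under median-ratio scaling, scaling to assigned tags, a pseudocount of 0.1 TPM, minima of 5 and 20 TPM, a 3-fold rule, and against M12 or Rmtr23B alone (5 to 7 higher, 6 to 8 lower). The comparisons against single strains and the other P450 definitions were chosen after seeing the data. Against Rmtr23B alone the share of higher P450s was near that of all genes. With P450s taken by name only, 1 was higher. Under median-ratio scaling 0 other members and 328 of all genes were higher, beside 5 and 608 lower, and the medians were 0.068 (log2) for P450s, -0.31 for other members, where it had been 0.04, and 0.0083 for all genes, those passing the minimum after scaling. That scaling lowers Dmtr23B against both other strains by construction, and the TMM scaling of the edgeR test lowered it as well. With the 3-fold rule 0 other members were higher and 1 lower, and 214 of all genes were higher. Against Rmtr23B alone 7 other members were higher. With a minimum of 5 TPM the P450 median was 0.23. The count lower in Rmtr23B than in M12 was 11 with a minimum of 5 TPM, 4 with 20 TPM and 4 with the 3-fold rule. Members past the test depended on the tool and filter, with 4 that rose and 10 that fell in DESeq2, and 5 and 13 in edgeR without a minimum; the cause was not tested. Of the named genes 2 lost and 1 gained their 2-fold call under median-ratio scaling, and 1 gained it with the pseudocount of 0.1 TPM. At 10 TPM about 34 tags support a value, which limits PDE_01070, PDE_05708 and PDE_01404. No paired analysis was possible because each strain and medium has 1 library, and leaving one out leaves no test.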

Other observations

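Of the 8 heme or P450 genes left out by pathway, 3 were lower in Dmtr23B by the size rule. Over all measured genes 7.82% were lower and 10.8% higher. PDE_01429 and PDE_08956 were too low to be measured. PDE_00811, matched to the P450 AtmQ, is 3 locus numbers from PDE_00808 and had 1.79 TPM in Dmtr23B, 73.8 TPM in Rmtr23B and 59.8 TPM in M12. PDE_01064, with no product name, is 6 locus numbers from PDE_01070 and had 3.88 TPM in Dmtr23B, 67.3 TPM in Rmtr23B and 53.9 TPM in M12. PDE_09230 had 13.1 TPM in Dmtr23B, 353 TPM in Rmtr23B and 184 TPM in M12. In the other direction, the sterol demethylase match Cyp51B (PDE_06265) had 19.4 TPM in Dmtr23B, 4.17 TPM in Rmtr23B and 5.66 TPM in M12. PDE_02842, with no product name, had 37.3 TPM in Dmtr23B, 8.63 TPM in Rmtr23B and 12.2 TPM in M12. Both genes were higher by the size rule, without passing the edgeR test.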
